A study of Homo sapiens with 6 samples.

Results

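CD44, CD47, the 4 syndecans SDC1, SDC2, SDC3 and SDC4, dystroglycan (DAG1) and the hyaluronan synthase HAS2 are 8 of the 22004 genes in the count table. They were chosen by name as receptors that hold cells to the matrix, together with an enzyme that makes a CD44 ligand, and all 8 were found. The RNA-seq libraries were made from poly(A) RNA of H1299 cells, an established human non-small cell lung cancer line without p53, labelled wild type and epithelial-like. One group was treated with 1.5 µM AVJ16 for 48 h and the other with its solvent DMSO for the same time. AVJ16 is a small molecule directed at IGF2BP1, a protein that binds mRNAs and protects them from decay. There were 3 DMSO libraries (A, B, C) and 3 AVJ16 libraries (D, E, F). The comparison asked how the steady-state level of each mRNA differed between treated and control cells of this 1 line.

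Cells grip the extracellular matrix through integrins and through a second set of receptors, to which these genes belong. CD44 binds hyaluronan, a long sugar polymer that HAS2 makes at the plasma membrane, and links it to the actin cortex through ezrin and moesin. Syndecans are transmembrane proteins whose heparan sulfate chains bind fibronectin, laminins and growth factors, and dystroglycan binds laminins through a sugar chain that must be built by a series of glycosyltransferases. CD47 binds thrombospondin and, on neighbouring cells, SIRPA, through which it restrains phagocytosis.

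The libraries held 19353830 to 30253721 counts. In library D 11.9% of the counts fell on mitochondrially encoded mRNAs, against 5.13% to 6.66% in the other 5 libraries, and the part of this share in the results was not tested beyond leaving D out. By a chi-square of counts averaged over genes, D differed from E and F by 86.4 and 98.1, whereas the other pairs within a group differed by 4.02 to 15.8, so that D stood apart from its group and no pair agreed within sampling noise. The study's methods speak of biological repeats, but separate cultures are not stated in the labels, so that a p-value here reflects the scatter among these libraries, which may be partly technical. Levels are given as CPM, which are counts scaled by library size and by the TMM factor of the library. This factor was 1.02 to 1.06 in the DMSO libraries and 0.931 to 0.987 in the AVJ16 libraries. CPM are therefore not the same as scaling by library size alone. Keratin genes KRT8 and KRT18 were abundant, at 307 ± 22.5 and 487 ± 34.5 CPM in DMSO (mean ± SD, n = 3). The epithelial markers EPCAM and CDH1, however, were at 0.432 ± 0.121 and 1.45 ± 0.157 CPM in DMSO. CDH1 fell to 0.234 ± 0.182 CPM in AVJ16 (edgeR adjusted p = 0.00479). The other 6 epithelial markers tested did not pass, with KRT8 at 387 ± 59.2, KRT18 at 539 ± 125.3 and EPCAM at 0.471 ± 0.107 CPM in AVJ16, and the median log2 fold change of the 7 was 0.15. None of the 4 lung epithelial markers in the table reached a mean of 1 CPM. The summed level of 6 mesenchymal markers, mostly vimentin, was 5536 to 6393 CPM in DMSO and 7588 to 7776 CPM in AVJ16, and its part in the results was not tested. Of these markers VIM (0.39) and TWIST1 (0.46) rose, FN1 fell by 0.68 on the log2 scale (edgeR adjusted p = 0.0449, 0.0307 and 0.015), and CDH2, SNAI2 and ZEB1 did not pass. The calls of CDH1, VIM, TWIST1 and FN1 were not checked gene by gene with a library left out. The 10 leukocyte, endothelial and fibroblast markers summed to 7.38 to 8.2 CPM in DMSO and 5.39 to 8.1 CPM in AVJ16. IGF2BP1 itself was at 265.6 ± 1.49 CPM in DMSO and 246.2 ± 11.7 CPM in AVJ16 (log2 fold change -0.11, SE 0.09), which did not pass the test (edgeR adjusted p = 0.441).

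Of the 8 genes, 7 had enough counts to be tested. CD44 rose, SDC2 and SDC3 fell, and SDC4, DAG1, CD47 and SDC1 did not reach the threshold of 0.05 on the Benjamini-Hochberg adjusted p of edgeR's quasi-likelihood F test, taken over all 16330 genes tested. Thus 3 of 7 (42.9%) passed, where 14.6% of all genes did. The 1 gene that rose stands beside 5.87% of all genes higher and the 2 that fell beside 8.77% lower. For 5 of the 7 genes the groups were fully apart (2 above and 3 below in AVJ16), as they were for 37.1% of all genes tested. The median log2 fold change of the 7 was 0.00 and that of all genes tested was -0.01, since rises and falls were mixed. In bulk RNA, fewer cells of a kind and less RNA per cell cannot be told apart.

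**Figure D1:**
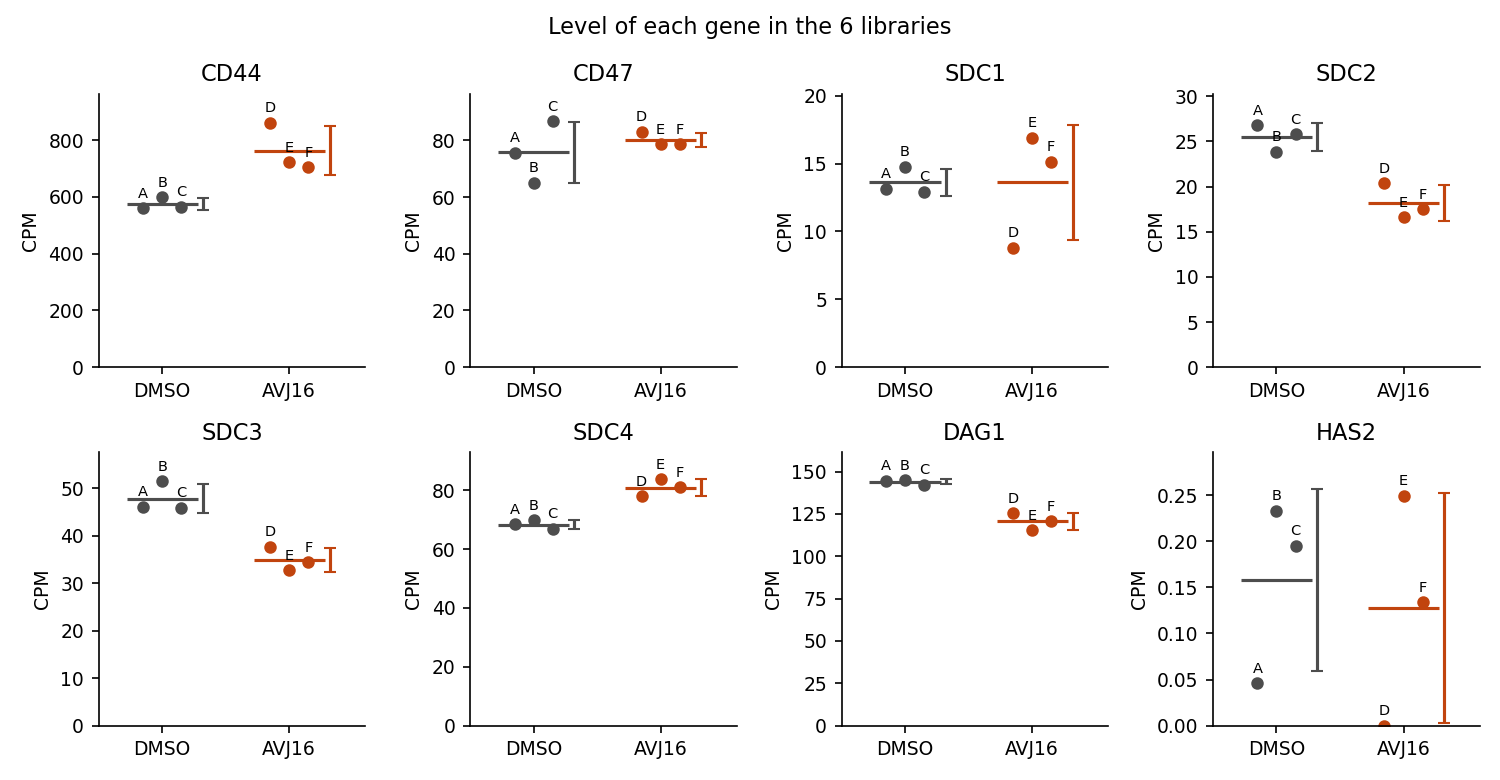
Level of the 8 genes in each library in CPM, with DMSO in grey and AVJ16 in red. Points are libraries, horizontal lines are means and bars are the SD (n = 3). The groups are apart for CD44, SDC2, SDC3, SDC4 and DAG1 and overlap for CD47 and SDC1, and D has the highest CD44 and the lowest SDC1.

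CD44 was the most abundant of the 8 per length of transcript, at 57.5 ± 2.09 CPM per kb of exon in DMSO and 76.3 ± 8.61 in AVJ16 (mean ± SD, n = 3). The gene lies at chr11:35138882-35232402 on the plus strand (GRCh38, GENCODE 44), and 1.54% of its exonic bases overlap the antisense genes CD44-AS1 and CD44-DT. The level was 559.8, 598.5 and 565.5 CPM in A, B and C, and 861.6, 722.0 and 704.6 CPM in D, E and F. Every AVJ16 library was above every DMSO library, with D the highest of all. CD44 rose 1.33-fold (log2 fold change 0.41, SE 0.11, 95% interval 0.16 to 0.65, edgeR adjusted p = 0.0361). Without D, the library with the high mitochondrial share, the rise was smaller, at 0.31, and still passed (edgeR adjusted p = 0.00489). In that fit 37.2% of all genes tested passed, against 14.6% with all libraries. The call was lost without A (edgeR adjusted p = 0.169), B (0.0919), C (0.136), E (0.0518) or F (0.0691), and with scaling by library size alone (log2 fold change 0.30, adjusted p = 0.0723), although CD44 was higher in AVJ16 under every setting tried.

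SDC3, a syndecan best known from neurons, and SDC2, a syndecan of mesenchymal cells, fell by similar amounts. SDC3 (chr1:30869466-30908758, minus strand) was at 46.2, 51.5 and 45.9 CPM in A, B and C and at 37.7, 32.7 and 34.4 CPM in D, E and F. Its highest AVJ16 library, D, lay below its lowest DMSO library, and the level fell to 0.73 of the DMSO level (log2 fold change -0.46, SE 0.11, 95% interval -0.70 to -0.21, edgeR adjusted p = 0.0242). SDC2 (chr8:96493813-96611790, plus strand) was at 26.8, 23.9 and 25.8 CPM in DMSO and 20.4, 16.6 and 17.5 CPM in AVJ16. These groups did not overlap either, and SDC2 fell to 0.712 of the DMSO level (log2 fold change -0.49, SE 0.12, 95% interval -0.76 to -0.22, edgeR adjusted p = 0.0278). Both calls had a smaller adjusted p without D, at 0.00043 for SDC3 and 0.000353 for SDC2, where 37.2% of all genes passed. Both were lost when any other library was left out, with an edgeR adjusted p of 0.0997, 0.097, 0.0783, 0.0688 and 0.113 for SDC3 and of 0.143, 0.0666, 0.108, 0.08 and 0.131 for SDC2 without A, B, C, E and F in turn.

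SDC4, the syndecan of focal adhesions, and SDC1, the main syndecan of epithelia, did not pass the test. SDC4 (chr20:45325288-45348424, minus strand) was at 68.4, 69.7 and 67.0 CPM in A, B and C and at 78.0, 83.7 and 81.0 CPM in D, E and F. All AVJ16 libraries lay above all DMSO libraries, and the log2 fold change was 0.24 (SE 0.09, 95% interval 0.04 to 0.45, edgeR adjusted p = 0.106). Without D, where 37.2% of all genes passed, it was 0.27 and passed (edgeR adjusted p = 0.0132). With scaling by library size alone it was 0.13 (adjusted p = 0.386). SDC1 (chr2:20200797-20225433, minus strand) was at 13.2, 14.8 and 12.9 CPM in DMSO and at 8.82, 16.9 and 15.1 CPM in D, E and F. Library D was the lowest of the 6 and E and F the highest, so the groups overlapped and the log2 fold change was 0.00 (SE 0.22, 95% interval -0.48 to 0.49, edgeR adjusted p = 0.997). Without D it was 0.23 (edgeR adjusted p = 0.103). Without E it turned to -0.18 (adjusted p = 0.637).

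To show the start regions of members with different results, the 150 bases before the RefSeq start (GRCh38.p14) are printed here for CD44, which rose, SDC3, which fell, and SDC4, which did not pass the test. Capitals mark the GC box, GGGCGG on either strand, where a repeated GGGCGG can overlap the next.
CD44 (chr11:35139021-35139170, plus strand): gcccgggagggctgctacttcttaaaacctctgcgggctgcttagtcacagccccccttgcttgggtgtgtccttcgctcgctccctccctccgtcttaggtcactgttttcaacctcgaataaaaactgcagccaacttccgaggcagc
SDC3 (chr1:30908759-30908908, minus strand): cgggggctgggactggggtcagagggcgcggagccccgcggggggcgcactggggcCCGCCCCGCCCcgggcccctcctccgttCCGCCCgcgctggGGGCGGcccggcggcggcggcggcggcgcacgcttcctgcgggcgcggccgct
SDC4 (chr20:45348425-45348574, minus strand): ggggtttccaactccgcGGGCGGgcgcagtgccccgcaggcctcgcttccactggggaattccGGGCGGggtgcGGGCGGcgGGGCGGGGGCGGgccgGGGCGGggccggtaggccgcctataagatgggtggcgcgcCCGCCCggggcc
The CD44 window held 0 GC boxes and was 57.3% G and C, close to the median of 60.0% over 35116 promoters. SDC3 held 4 GC boxes and SDC4 held 7, at 87.3% and 80.7% G and C, and 36.8% of all promoters of this length held at least 1. A match describes the letters only, and no binding was measured.

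The summed level of the syndecans overlapped between the groups, while the make-up of that sum was apart for SDC2, SDC3 and SDC4. This measure was chosen after the values were seen. Summed over the 4 genes, the level was 43.0 ± 0.939 CPM per kb in DMSO and 44.1 ± 1.4 in AVJ16 (exact two-sided permutation p = 0.3). SDC4 made up 60.99%, 60.79% and 60.97% of that sum in A, B and C and 70.06%, 70.54% and 69.9% in D, E and F. Its share was therefore 9.25 percentage points higher in AVJ16, with an SD of 0.11 in DMSO and 0.33 in AVJ16, and D did not stand apart in it. SDC3 went from 15.8 ± 0.73% to 11.2 ± 1.17% and SDC2 from 14.6 ± 1.09% to 10.1 ± 1.43%. SDC1 overlapped between the groups, at 8.77 ± 0.47% and 8.5 ± 2.44%. The shares of SDC2, SDC3 and SDC4 each gave the smallest p that 3 against 3 libraries allow (exact two-sided permutation p = 0.1). The 4 shares are parts of the same sum. They are built from the levels above, which were already apart for SDC2, SDC3 and SDC4, so they are not separate results.

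**Figure D2:**
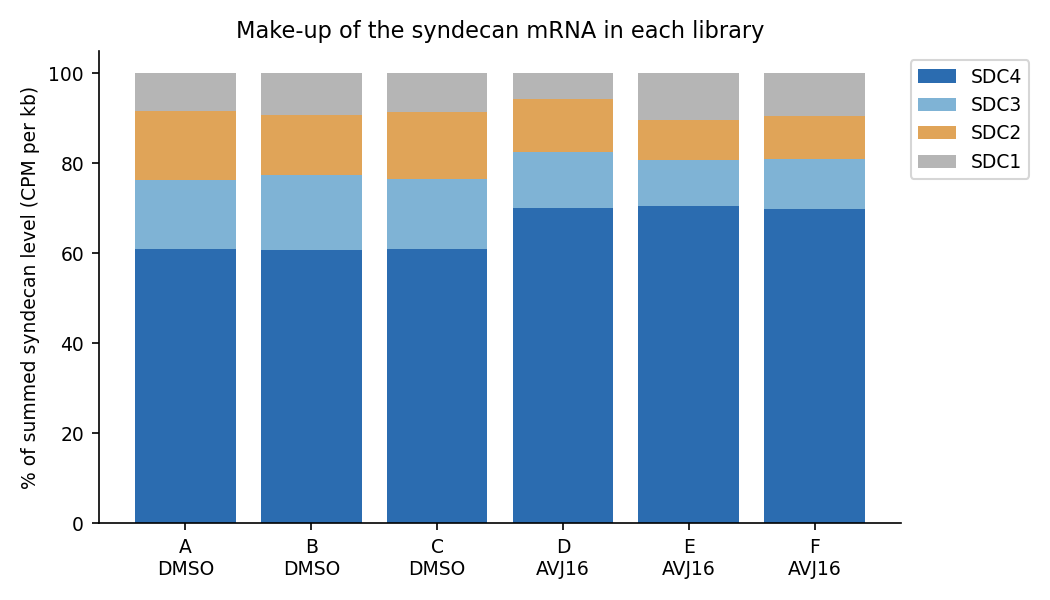
Share of each syndecan in the summed syndecan level (CPM per kb of exon) of each library. Each bar is 1 library and adds to 100%. SDC4 takes 60.8% to 61.0% in the 3 DMSO libraries and 69.9% to 70.5% in the 3 AVJ16 libraries.

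Ratios of 2 syndecans within a library were compared for all 6 pairs. The log2 ratio of SDC2 to SDC4 went from -1.42 ± 0.11 to -2.16 ± 0.2 (mean ± SD, n = 3, exact two-sided permutation p = 0.1, 0.3 after adjustment over 6 pairs). That of SDC3 to SDC4 went from -0.52 ± 0.07 to -1.21 ± 0.15, with the same p-values by the exact test. In both pairs every AVJ16 library lay below every DMSO library. This follows from the levels above, where SDC2 and SDC3 were lower and SDC4 higher without overlap, so it adds no further result. SDC2 and SDC3 did not separate from each other (change in log2 ratio -0.04, exact permutation p = 0.8), and the 3 pairs with SDC1 overlapped between groups (exact permutation p = 0.4 each). No pair could pass 0.05 in a design whose smallest p is 0.1.

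DAG1 encodes both subunits of dystroglycan, the laminin receptor of the dystrophin complex. It lies at chr3:49468713-49535618 on the plus strand. Its level was 144.7, 144.9 and 142.3 CPM in A, B and C and 125.6, 115.4 and 120.8 CPM in D, E and F. The AVJ16 libraries were all lower, with an SD of 1.43 CPM in DMSO and 5.1 CPM in AVJ16. The log2 fold change was -0.26 (SE 0.09, 95% interval -0.46 to -0.06), which did not pass (edgeR adjusted p = 0.0849). It passed without D (-0.29, edgeR adjusted p = 0.00776), where 37.2% of all genes did. It also passed with scaling by library size alone (-0.37, adjusted p = 0.0232).

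CD47 (chr3:108043091-108091862, minus strand) was at 75.6, 65.1 and 86.7 CPM in A, B and C and at 83.1, 78.7 and 78.6 CPM in D, E and F. The DMSO libraries spanned all 3 AVJ16 libraries. The log2 fold change was 0.08 (SE 0.12, 95% interval -0.19 to 0.35, edgeR adjusted p = 0.694), and it was -0.02 without B and -0.03 with scaling by library size alone. HAS2 (chr8:121612116-121641440, minus strand) was near the limit of detection, with 1, 7 and 4 counts in A, B and C and 0, 6 and 4 counts in D, E and F. A count of 0 in D allows up to 0.137 CPM. Relative to all counts, the AVJ16 to DMSO ratio of its 22 counts was 0.74 (exact 95% interval 0.29 to 1.87, counting error only), so no difference was detectable at this depth. Exons of HAS2-AS1 overlap 5.92% of its exonic bases on the other strand.

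**Figure D3:**
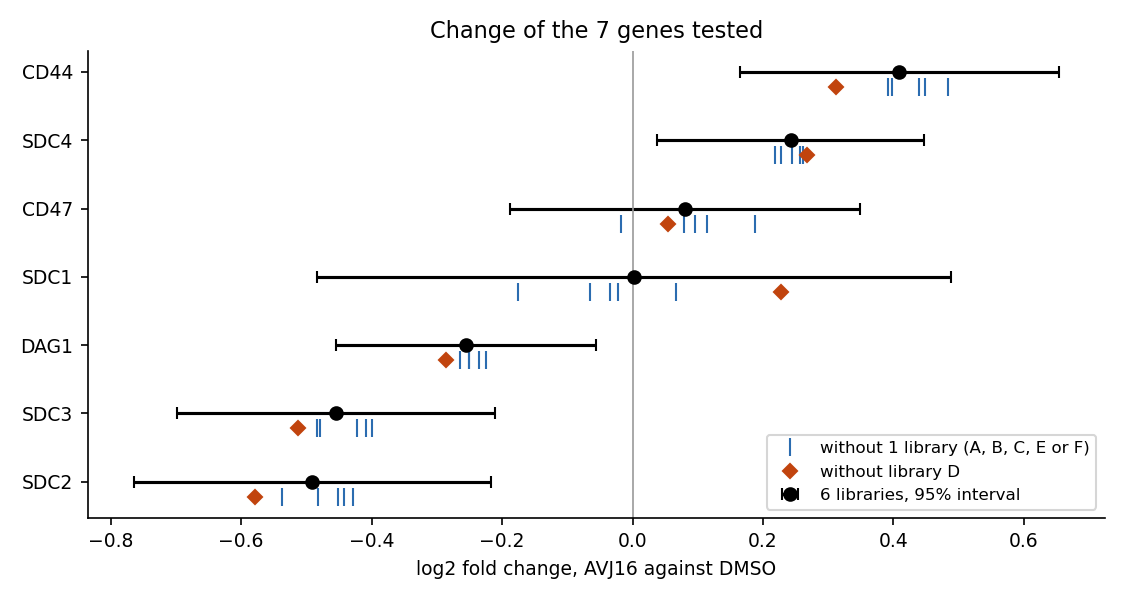
Log2 fold change of the 7 genes tested, AVJ16 against DMSO. Black points and bars give the value over 6 libraries with its 95% interval, blue ticks the value with A, B, C, E or F left out, and red diamonds the value without D. CD44, SDC2, SDC3, SDC4 and DAG1 keep their side of 0 whichever library is left out, while CD47 and SDC1 do not.

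By level per kb of exon, the order in DMSO was CD44 at 57.5, SDC4 at 26.2, DAG1 at 20.03, CD47 at 9.21, SDC3 at 6.77, SDC2 at 6.24, SDC1 at 3.77 and HAS2 at 0.0373 CPM per kb. The order was the same in AVJ16, where SDC4 was at 31.0, DAG1 at 16.8 and CD47 at 9.73 CPM per kb. SDC3 and SDC2 overlapped in both groups, and SDC2 and SDC1 overlapped in AVJ16, at 4.44 ± 0.485 and 3.77 ± 1.18 CPM per kb. All other neighbours were apart in each library of a group. SDC4 lay above and DAG1 below its own DMSO range in all 3 AVJ16 libraries.

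The genes that most resembled CD44 across the 6 libraries were C18orf21, TAOK3 and CSPP1, with Pearson's r of 0.999, 0.998 and 0.997 for log2 CPM among 11220 genes of at least 5 CPM. Those most like SDC3, the gene with the smallest p, were HOXB6, MYH14 and GALNT11, at r of 0.999, 0.996 and 0.995. These correlations describe 6 libraries that share 2 treatments, and 288 genes reached an r above 0.95 with CD44 and 332 with SDC3. TAOK3, a kinase, went from 40.6, 45.1 and 39.9 CPM to 92.6, 65.8 and 65.5 CPM, with D the highest as in CD44. HOXB6, a homeobox transcription factor, went from 23.1, 26.2 and 22.3 CPM to 17.0, 14.1 and 14.8 CPM.

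Partners of these receptors were described by list, each beside its median, with all genes tested at a median log2 fold change of -0.01. Over all genes 5.87% were higher and 8.77% lower (14.6% in all), and without D, where 16785 genes were tested, 17.6% were higher and 19.6% lower (37.2% in all). Larger list counts without D stand beside these larger shares. Of the 14 tested genes that make, break down or bind hyaluronan, 1 rose and 4 fell (median 0.01). HAPLN3, a link protein that fixes hyaluronan to proteoglycans, fell from 3.55 ± 0.165 to 1.73 ± 0.248 CPM (log2 fold change -1.05, edgeR adjusted p = 0.00591). VCAN, the hyaluronan-binding proteoglycan versican, fell from 48.3 ± 0.354 to 25.4 ± 7.12 CPM (-0.93, edgeR adjusted p = 0.0109), and CEMIP2, a cell-surface hyaluronidase, fell by 0.63 on the log2 scale (edgeR adjusted p = 0.0275). HABP4, an intracellular protein first found by its binding to hyaluronan, rose from 63.6 ± 7.27 to 104.6 ± 4.43 CPM (0.72, edgeR adjusted p = 0.00452), and 26.8% of its exonic bases overlap CDC14B on the other strand. HAS3, a synthase with enough counts to be tested, was at 1.01 ± 0.127 and 0.959 ± 0.121 CPM, and HMMR, a hyaluronan-binding protein of the spindle, did not pass (0.35, edgeR adjusted p = 0.145). The calls of VCAN (without B or F) and CEMIP2 (without any library but D) were lost when a library was left out, at an edgeR adjusted p of up to 0.0657 and 0.131.

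Of 19 tested partners, splicing factors and ligands of CD44, 2 rose and 4 fell (median -0.04), and without D 2 rose and 6 fell. The ERM proteins EZR (ezrin) and MSN (moesin), which tie the CD44 tail to actin, rose together with CD44, whereas the ERM protein RDX (radixin) did not pass, at 181.3 ± 11.5 and 185.7 ± 34.1 CPM (edgeR adjusted p = 0.889). EZR went from 429.1 ± 25.9 to 606.2 ± 22.3 CPM (log2 fold change 0.50, edgeR adjusted p = 0.0102) and MSN from 401.5 ± 22.9 to 599.2 ± 43.5 CPM (0.58, edgeR adjusted p = 0.00694). The spectrin-actin adaptors ANK3 and EPB41, which also bind the CD44 tail, fell, ANK3 from 11.6 ± 0.721 to 4.56 ± 1.15 CPM (-1.36, edgeR adjusted p = 0.00248) and EPB41 from 82.2 ± 3.69 to 44.4 ± 5.9 CPM (-0.89, edgeR adjusted p = 0.0026). The call of MSN was lost without A (adjusted p = 0.0531) and that of EZR without A, C or F (up to 0.0732). ESRP1, the epithelial splicing factor of the CD44 variant exons, was at 1.16 ± 0.109 and 1.12 ± 0.522 CPM (edgeR adjusted p = 0.9). The counts are per gene, so CD44 splice forms were not analysed here.

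Of 6 tested ligands and modifiers of CD47, 1 rose and 2 fell (median -0.09), and without D 2 rose and 2 fell. QPCTL, the glutaminyl cyclase that modifies CD47 so that SIRPA can bind, rose from 38.7 ± 2.16 to 68.9 ± 21.9 CPM (log2 fold change 0.83, edgeR adjusted p = 0.0324). SIRPA itself fell from 8.59 ± 0.834 to 5.74 ± 0.834 CPM (-0.59, edgeR adjusted p = 0.0328), and LRP1, an endocytic receptor that works with calreticulin, fell from 51.6 ± 2.26 to 32.7 ± 1.7 CPM (-0.66, edgeR adjusted p = 0.00451). The calls of QPCTL and SIRPA were lost when any library but D was left out (adjusted p up to 0.121 and 0.146), and that of QPCTL also with scaling by library size alone. THBS1, the thrombospondin ligand, did not pass (0.31, edgeR adjusted p = 0.123).

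Of 12 intracellular partners of the syndecans, 2 rose and 1 fell (25% called, median 0.16), and without D 5 rose and 4 fell, where 37.2% of all genes were called. The actin cross-linkers ACTN1 and ACTN4 rose by 0.43 and 0.40 on the log2 scale (edgeR adjusted p = 0.0181 and 0.0449), to 514.1 ± 24.3 and 1303 ± 93.7 CPM. TIAM1, a Rac exchange factor that binds syndecan tails, fell by 0.44 (edgeR adjusted p = 0.0258). The call of ACTN1 was lost without A, C or F (adjusted p up to 0.109) and that of ACTN4 without any library but D (up to 0.192), and both were lost with scaling by library size alone. TIAM1 was lost without B (0.0531), E (0.0719), F (0.103), C (0.124) or A. CAPN12 overlaps 14.2% of the exonic bases of ACTN4 on the other strand.

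Of 13 enzymes that shed ectodomains or trim heparan sulfate, 1 rose and 4 fell (median -0.05). The 2 sulfatases that remove sulfate groups from heparan sulfate chains fell, SULF2 from 20.1 ± 1.11 to 8.97 ± 2.26 CPM (log2 fold change -1.17, edgeR adjusted p = 0.00393) and SULF1 from 11.4 ± 1.06 to 5.01 ± 2.11 CPM (-1.20, edgeR adjusted p = 0.0148). MMP2, a gelatinase, fell from 8.84 ± 0.121 to 4.98 ± 0.401 CPM (-0.83, edgeR adjusted p = 0.00456), and PSEN2, a catalytic subunit of gamma-secretase, fell by 0.66 on the log2 scale (edgeR adjusted p = 0.00964), with 38.7% of its exonic bases shared with another gene on the same strand. The calls of SULF1 (without B, C or F) and PSEN2 (without A or F) were lost at an adjusted p of up to 0.0751 and 0.0647. MMP14, the 1 gene of this list that rose, went from 72.4 ± 7.31 to 95.5 ± 3.86 CPM (0.40, edgeR adjusted p = 0.0356). Its call was not checked gene by gene with a library left out. The sheddases ADAM10 and ADAM17 did not pass, at log2 fold changes of -0.05 and 0.24. Of 12 tested enzymes that start glycosaminoglycan chains, EXTL3, which starts heparan sulfate, fell by 0.57 (edgeR adjusted p = 0.0093) and CSGALNACT2, which starts chondroitin sulfate, rose by 0.57 (edgeR adjusted p = 0.0179), with a list median of -0.14. These were the 2 calls of the list (16.7%), and without D 2 rose and 4 fell of 13 tested. CSGALNACT1 was lower in every AVJ16 library, at 0.681 ± 0.168 and 0.321 ± 0.0529 CPM, but did not pass (-1.13, edgeR adjusted p = 0.0518). EXTL3 was lost without A (adjusted p = 0.0593) and CSGALNACT2 without A, B, C or F (at most 0.0861).

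Of 12 tested ligands of dystroglycan 8 fell and 0 rose by edgeR's test, with a median log2 fold change of -1.14. None rose at an unadjusted p under 0.05 in edgeR or DESeq2, and 1 did with voom. LAMA4 and LAMA1, laminin alpha chains, fell from 13.9 ± 0.597 to 4.34 ± 0.966 CPM (log2 fold change -1.69, edgeR adjusted p = 0.00102) and from 13.7 ± 1.36 to 4.70 ± 0.985 CPM (-1.55, edgeR adjusted p = 0.00148). SLIT2, an axon guidance protein that binds dystroglycan, fell from 101.5 ± 5.53 to 35.7 ± 8.36 CPM (-1.51, edgeR adjusted p = 0.00138). NRXN3, a neurexin, fell from 3.59 ± 0.721 to 0.586 ± 0.151 CPM (-2.57, edgeR adjusted p = 0.00113). These 4 calls held under all 14 alternatives. LAMA5, the laminin alpha chain with the highest level in the list, did not pass (-0.15, edgeR adjusted p = 0.503). It was at 246.6 ± 11.5 CPM in DMSO and 222.4 ± 41.6 CPM in AVJ16, and the groups overlapped. AGRN (agrin) and HSPG2 (perlecan) did not pass either, at log2 fold changes of -0.51 and 0.05. Antisense genes overlap 11.1% of the exonic bases of LAMA1.

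Of 19 tested enzymes of dystroglycan glycosylation, 1 rose and 6 fell (36.8% called, median -0.13), and without D 5 rose and 9 fell, where 37.2% of all genes were called. B4GAT1, a glucuronyltransferase of this pathway, and DOLK, a dolichol kinase, fell by 0.67 and 0.55 on the log2 scale (edgeR adjusted p = 0.0118 and 0.0178), with both calls lost if A, B, C or F was dropped (highest adjusted p 0.0607 and 0.0848). POMT1, an O-mannosyltransferase that acts at the start of the pathway, did not pass, at a log2 fold change of 0.10. Of the 13 tested genes of the dystrophin complex, 1 rose and 2 fell (23.1% called, median -0.20), and without D 1 rose and 5 fell of 14 tested, where 37.2% of all genes were called. DTNA, alpha-dystrobrevin, fell from 29.2 ± 1.24 to 13.3 ± 1.34 CPM (-1.14, edgeR adjusted p = 0.00114). SSPN, sarcospan, fell from 0.739 ± 0.0789 to 0.265 ± 0.0561 CPM (-1.46, edgeR adjusted p = 0.0164), and SGCE, epsilon-sarcoglycan, rose by 0.39 (edgeR adjusted p = 0.0217). The call of SSPN was lost when any library but D was left out (adjusted p up to 0.0737) and in DESeq2 without independent filtering, and that of SGCE if A, B, C or F was dropped (highest adjusted p 0.138) and with scaling by library size alone. Other genes overlap 15.1% of the exonic bases of SSPN. DMD and UTRN, the cytoskeletal anchors dystrophin and utrophin, did not pass, at -0.33 and -0.21.

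**Figure D4:**
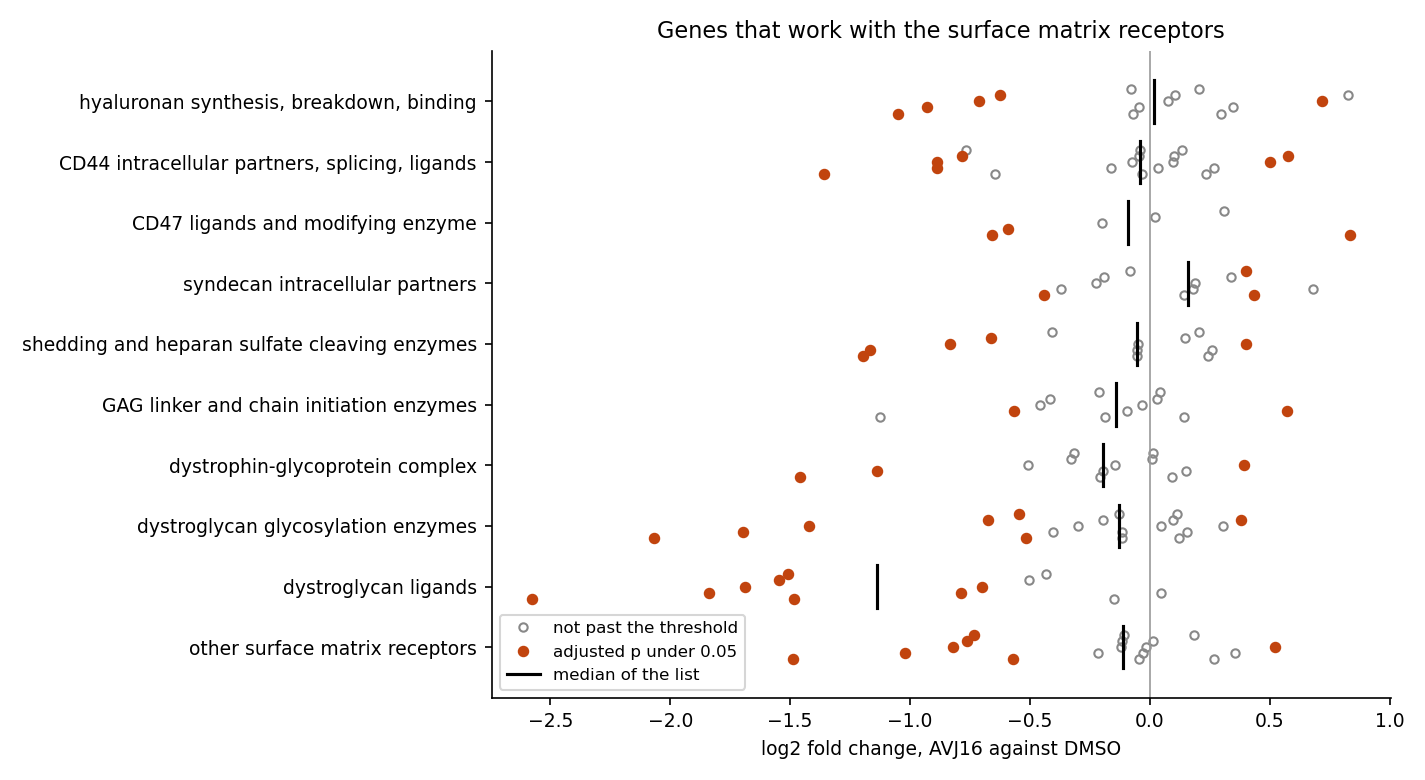
Log2 fold change, AVJ16 against DMSO, of each tested gene in 10 lists of partners, enzymes, ligands and other surface receptors. Filled red points passed an adjusted p of 0.05, open grey points did not, and black ticks are list medians. The dystroglycan ligands have a median of -1.14, and the other 9 lists have medians from -0.20 to 0.16.

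Of 18 other surface matrix receptors tested, 1 rose and 6 fell (median -0.11). CSPG4, a chondroitin sulfate proteoglycan of the cell surface, fell from 2.11 ± 0.136 to 0.754 ± 0.103 CPM (log2 fold change -1.49, edgeR adjusted p = 0.00308). GPC4 and GPC6, glypicans that carry heparan sulfate on a lipid anchor, fell by 0.76 and 1.02 on the log2 scale (edgeR adjusted p = 0.014 and 0.0174). NECTIN1, an adhesion protein of adherens junctions, fell by 0.57 (edgeR adjusted p = 0.0166). The calls of GPC4 (without B, C or F), GPC6 and NECTIN1 (both without any library but D) were lost at an adjusted p of up to 0.0802, 0.0849 and 0.0997. DDR2 and the integrin chain ITGAV fell by 0.82 and 0.73 (edgeR adjusted p = 0.0215 and 0.0281). PLAUR, the 1 gene of this list that rose, did so by 0.52 (edgeR adjusted p = 0.0381). The calls of DDR2, ITGAV and PLAUR were not checked gene by gene with a library left out. ITGB1, the common beta chain of matrix-binding integrins, did not pass (0.35, edgeR adjusted p = 0.226).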

How the data were processed

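Counts per gene of the 6 libraries were used as deposited. According to the submitters' processing notes and the study's methods, the authors trimmed reads with cutadapt 2.10, aligned them to GRCh38 with TopHat2 2.1.1 and counted them with HTSeq 2.01, and the sources used here do not give the strand setting. Columns A to F are not named in the labels, so their groups were taken from the description of the series used here and the condition bar of the study's heat map. The authors' normalised counts and comparison columns (fold changes and p-values by DESeq2 1.36.0) were not used. A filter on low counts (filterByExpr, at least 10 counts and a total of 15) came first, and genes were then scaled by TMM and tested by edgeR 4.0.16 (R 4.3.3) with a threshold of 0.05. The edgeR 4 form of the quasi-likelihood test was taken, to match earlier processing, after both it and the edgeR 3 form (2390 and 2359 genes past the threshold) had been run. SEs were derived from the F statistic. The script was tested on simulated data with few changed genes, where the share of false calls came out above the threshold while p-values of unchanged genes were close to nominal, and the pass criterion was moved from the former to the latter after this was seen. DESeq2 1.42.0 and limma 3.58.1 (voom) served as alternatives.

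The genes and lists were chosen with earlier results of these data known. Named genes were the 8, IGF2BP1, up to 4 past the threshold with the smallest p per list, defining members that did not pass, and the 3 genes most like CD44 and SDC3. Some genes that this rule names are not reported here. Shares of the syndecan sum, and the marker genes given with their levels, were chosen after the values were seen. Levels per kb divide CPM by the exon union in GENCODE 44.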

Additional observations from a re-analysis of the deposited data

How the results depend on the processing

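No paired analysis was possible because the columns carry no replicate numbers. The count of genes past the threshold, 2390 of 16330, was 7136 with voom and sample weights and 824 to 6250 with 1 library left out (6250 without D, 824 without A). The number of the 8 genes (7 tested) past the threshold, 3, was 5 with voom and 0 to 5 with 1 library left out. The 5 with voom stand beside its 7136 genes past the threshold. Without D it was 5, where 37.2% of all genes passed. It was 0 without each other library, where 3 to 5 had an unadjusted p under 0.05 in edgeR. Those higher, 1, were 0 with scaling by library size alone, 2 with voom and 0 to 2 with 1 library left out. Those lower, 2, were 0 to 3 with 1 library left out. The syndecan pairs that separated between the groups, 2 of 6, were 4 without D and 2 to 4 over the libraries left out. Directions turned for CD47 with scaling by library size alone (-0.034) and without B (-0.018; -0.02 to 0.19 with 1 library left out), and for SDC1 with scaling by library size alone (-0.10), by upper quartile (-0.009) and between -0.18 and 0.23 with 1 library left out. With library size alone the median log2 fold change of all genes was -0.12. Of 35 named partner genes, 15 kept their call under all 14 alternatives, 30 kept it under the 8 that retain every library, and 0 reversed. The edgeR 3 form, chosen after seeing the data, changed none of the calls of the 7 genes tested. Leaving out any library, D included, leaves 1 group with 2, and the part of this in the lost calls was not tested. With AVJ16 at 2 libraries, 6250 genes passed without D, 1586 without E and 864 without F. HAS2 is limited by low counts. SDC1 scattered among the AVJ16 libraries and passed under none of the 14 alternatives, with a lowest adjusted p of 0.103 (edgeR, without D). The part of this scatter was not tested further.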
